A study of Mus musculus with 6 samples.

Results

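Brain endothelial cells line the vessels of the brain, and 10 genes that mark them were followed in RNA from mouse hippocampus. The genes were Cldn5, Cdh5, Pecam1, Esam, Flt1, Kdr, Tek, Slco1a4, Abcb1a and Vwf. They were taken by symbol, 1 Ensembl gene each, from a table of 52550 genes, and their splicing events were taken by the same symbols. In the brain these cells are sealed to each other by tight junctions and carry pumps and transporters, and together these form the blood-brain barrier. Growth factors of the VEGF and angiopoietin families keep the vessels in shape through receptors on the endothelial surface. Signals of the Wnt family from neural cells maintain the barrier properties, and inflammation is known to switch on adhesion molecules that catch passing leukocytes.

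Poly(A) RNA of the hippocampus was sequenced in 3 control and 3 L-DL KD libraries. According to the methods of the study, male C57BL/6 J mice received adeno-associated virus (AAV) in the CA1 area on both sides when they were 8 weeks old, carrying either a control shRNA or shRNAs against L-DL, the long isoform of the RNA-binding protein hnRNP D-like. All 6 libraries are thus from injected wild-type animals, although the labels call the controls WT and the other group hnRNPDL-KD, with hnRNP DL-/- in 1 field. The shRNAs were driven by the H1 promoter, which is active in any transduced cell, while the CamkIIα promoter of the same vector drove only the zsGreen reporter. The control virus was injected at a higher titre than the L-DL virus, so titre and shRNA cannot be told apart. The time between injection and collection of the RNA is not given in the sources used here. Replicates are numbered in the labels without a statement that each is a separate animal, so the p-values measure the spread between these libraries.

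The libraries held between 16052529 and 17913064 counts, and a level is given as CPM, the count scaled by the TMM-adjusted library total. Hnrnpdl, the targeted gene, had 2862, 3120 and 2689 counts in the controls and 3939, 2680 and 2904 in the other group. Its fold change, on the log2 scale, was 0.03 ± 0.12 (SE, n = 3 per group, edgeR's quasi-likelihood test, Benjamini-Hochberg adjusted p = 0.898). The gene count thus did not show a fall of the target in those libraries, and it does not separate the long isoform from the others. The paper assessed its knockdown by immunoblot of L-DL protein in injected hippocampus, which RNA counts do not measure. The libraries also differed in choroid plexus RNA, whose 10 listed genes summed to between 458 and 4764 CPM in the controls and between 41.9 and 5338 CPM in the L-DL KD group. Control 3 and L-DL KD 1 held the most of it.

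All 10 endothelial genes passed the filter of at least 10 counts in at least 3 libraries, and 5 of them were higher in the libraries labelled L-DL KD. These were Cldn5, Vwf, Cdh5, Pecam1 and Tek. None of the 10 was called lower, and the other 5 did not pass the test. Over all 17621 genes tested, 15.6% were called higher and 15% lower at an edgeR adjusted p under 0.05. The median log2 fold change was 0.56 over the 10 genes and 0.01 over all genes tested, with all 10 values above 0. In 6 of the 10 genes all 3 L-DL KD libraries lay above all 3 controls, which was so for 23.8% of all genes tested. In bulk tissue, fewer cells of a type and less RNA per cell cannot be told apart, and the same holds for more cells and more RNA per cell.

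**Figure D1:**
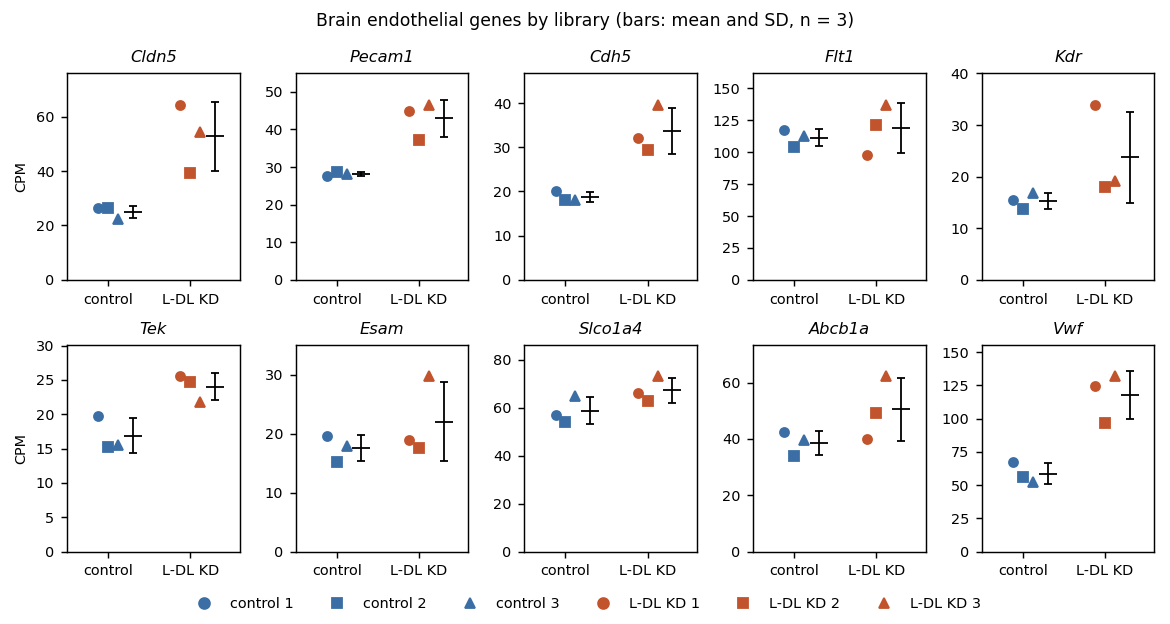
Level of each endothelial gene in every library, in CPM on a linear axis that starts at 0, with controls in blue, L-DL KD libraries in orange and the mean ± SD of each group (n = 3) in black. The groups are apart for Cldn5, Pecam1, Cdh5, Kdr, Tek and Vwf, and they overlap for Flt1, Esam, Slco1a4 and Abcb1a.

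Cell contacts come first. Cldn5 encodes claudin-5, the main tight junction claudin of brain endothelium, and lies on chr16:18776847-18778262 on the plus strand of GRCm38. Its level was 26.4, 26.3 and 22.2 CPM in controls 1 to 3 and 64.4, 39.4 and 54.4 CPM in L-DL KD 1 to 3. Every L-DL KD library was well above every control, and L-DL KD 2 was the lowest of its group. The mean went from 25.0 ± 2.37 CPM to 52.7 ± 12.6 CPM (SD, n = 3). The log2 fold change was 1.08 ± 0.17 (SE), with a 95% interval of 0.68 to 1.48 (edgeR, Benjamini-Hochberg adjusted p = 0.00296).

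Cdh5 encodes VE-cadherin, the adherens junction cadherin of endothelium, and lies on chr8:104101625-104144511 on the plus strand. It was at 20.03, 18.06 and 17.97 CPM in the controls and at 32.1, 29.5 and 39.6 CPM in L-DL KD 1 to 3. The controls lay close together and all L-DL KD libraries were above them. Cdh5 rose by 0.85 ± 0.13 on the log2 scale (SE), interval 0.55 to 1.15 (edgeR, Benjamini-Hochberg adjusted p = 0.00243). An antisense gene that overlaps it, Gm29682, had 0 counts in all 6 libraries.

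Pecam1 encodes CD31, an adhesion receptor of endothelial cells, platelets and leukocytes, and lies on chr11:106654217-106750628 on the minus strand. Its level was 27.7, 28.6 and 28.1 CPM in the controls and 45.0, 37.2 and 46.5 CPM in the L-DL KD libraries. No other of the 10 genes had controls so close together, with a coefficient of variation of 1.64%, and the groups did not overlap. Pecam1 rose by 0.61 ± 0.10 on the log2 scale (SE), interval 0.37 to 0.85 (edgeR, Benjamini-Hochberg adjusted p = 0.00368).

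Esam, an immunoglobulin-type adhesion molecule of endothelial tight junctions on chr9:37528078-37538319 (plus strand), was at 19.6, 15.2 and 17.97 CPM in the controls and at 19.0, 17.6 and 29.7 CPM in the L-DL KD libraries. L-DL KD 3 alone stood above the controls, and L-DL KD 1 and 2 were within the range of the controls. Its log2 fold change was 0.33 ± 0.21 (SE), interval -0.16 to 0.81 (edgeR, Benjamini-Hochberg adjusted p = 0.279). Without L-DL KD 3 it was 0.06. The 4 genes of cell contacts thus held 3 that rose and 1 whose interval spans both no change and a rise like that of Pecam1.

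The growth factor receptors followed. Flt1 encodes VEGFR1, a high-affinity VEGF receptor whose soluble form acts as a decoy, and lies on chr5:147561604-147726011 on the minus strand. It was at 117, 104 and 113 CPM in the controls and at 97.9, 122 and 137 CPM in L-DL KD 1 to 3. The L-DL KD libraries held both the lowest and the highest value of all 6. Its log2 fold change was 0.10 ± 0.12 (SE), interval -0.18 to 0.37 (edgeR, Benjamini-Hochberg adjusted p = 0.591), and without L-DL KD 3 it was -0.02.

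Kdr encodes VEGFR2, the receptor through which VEGF-A chiefly drives endothelial growth, and lies on chr5:75932827-75978458 on the minus strand. Its level was 15.4, 13.6 and 16.8 CPM in the controls and 33.9, 18 and 19.3 CPM in the L-DL KD libraries. All 3 L-DL KD libraries were above the controls, L-DL KD 1 by a wide margin and the other two narrowly. The log2 fold change was 0.64 ± 0.24 (SE), interval 0.08 to 1.19, and it missed the threshold over all genes (edgeR, unadjusted p = 0.0295, Benjamini-Hochberg adjusted p = 0.0808). Without L-DL KD 1 the value was 0.29. DESeq2 on the same counts gave 0.64 with an adjusted p of 0.0275, so the call on Kdr depends on the tool.

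Tek encodes TIE2, the receptor for the angiopoietins, and lies on chr4:94739289-94874976 on the plus strand. It was at 19.8, 15.3 and 15.6 CPM in the controls and at 25.5, 24.7 and 21.8 CPM in the L-DL KD libraries. The groups were apart, with control 1 the closest to the L-DL KD libraries. Tek rose by 0.51 ± 0.14 on the log2 scale (SE), interval 0.20 to 0.82 (edgeR, Benjamini-Hochberg adjusted p = 0.0242). This was the smallest of the 5 rises. It stayed under the threshold in 3 of the 6 fits that left out 1 library and missed it without control 2 (adjusted p = 0.0927), without control 3 (0.0869) and without L-DL KD 2 (0.0639).

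Both transporters of the blood-brain barrier were among the genes that did not pass. Slco1a4 encodes OATP1A4, an uptake carrier of organic anions, and lies on chr6:141805440-141856199 on the minus strand. Its level was 56.9, 54.1 and 65.0 CPM in the controls and 66.0, 62.9 and 73.0 CPM in the L-DL KD libraries. Control 3 was higher than L-DL KD 2, so the groups overlapped. The log2 fold change was 0.20 ± 0.09 (SE), interval -0.02 to 0.41 (edgeR, Benjamini-Hochberg adjusted p = 0.147).

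Abcb1a encodes the drug efflux pump P-glycoprotein and lies on chr5:8660077-8748575 on the plus strand. It was at 42.5, 34.0 and 39.6 CPM in the controls and at 40.1, 49.3 and 62.2 CPM in the L-DL KD libraries. L-DL KD 1 was within the range of the controls and L-DL KD 2 and 3 were above it. The log2 fold change was 0.39 ± 0.16 (SE), interval 0.02 to 0.75 (edgeR, unadjusted p = 0.042, Benjamini-Hochberg adjusted p = 0.105). Without L-DL KD 1 it was 0.53 with an adjusted p of 0.011, and without L-DL KD 3 it was 0.21 with an adjusted p of 0.271. Of the genes of unclear type that overlap Abcb1a, Gm42686 on the opposite strand had 1 to 9 counts per library and Gm42684 on the same strand 0 to 1. Whether counting used the strand is not given in the sources used here.

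Vwf encodes von Willebrand factor, a secreted protein of endothelial storage granules that captures platelets, and lies on chr6:125546774-125686679 on the plus strand. Its level was 67.3, 56.1 and 52.6 CPM in the controls and 125, 96.9 and 132 CPM in the L-DL KD libraries. The lowest L-DL KD library was far above the highest control. The mean went from 58.7 ± 7.68 CPM to 118 ± 18.4 CPM (SD, n = 3). On the log2 scale Vwf rose by 1.0 ± 0.14 (SE), interval 0.69 to 1.32 (edgeR, Benjamini-Hochberg adjusted p = 0.00139). Platelets also carry Vwf, and the 8 listed platelet and megakaryocyte genes summed to 3.82 to 5.73 CPM in the controls and 6.39 to 8.82 CPM in the L-DL KD libraries. Of these, 2 had enough counts to be tested and neither was called. The part of platelets in the level of Vwf was not tested.

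**Figure D2:**
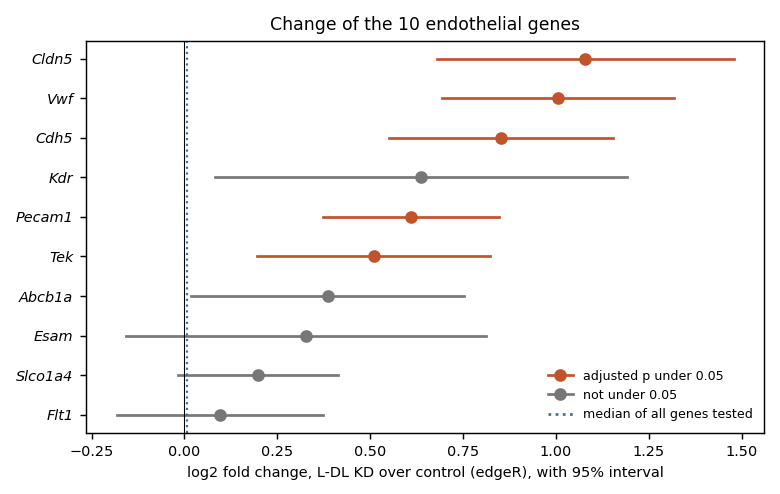
Log2 fold change of each endothelial gene in the libraries labelled L-DL KD over the controls, from edgeR with its 95% interval (n = 3 per group), ordered by size. The intervals of Esam, Slco1a4 and Flt1 include 0, those of Kdr and Abcb1a lie above 0 but miss the adjusted threshold, and the dotted line marks the median of all genes tested, 0.01.

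The levels of the 10 genes were also summed in each library. Their summed level was 413, 365 and 389 CPM in the controls and 548, 497 and 615 CPM in L-DL KD 1 to 3, a ratio of group means of 1.42. The groups did not overlap in this sum. The ratio was 1.84 for the 5 genes that rose and 1.17 for the 5 that were not called, a split that the calls themselves fixed. Without Vwf the ratio was 1.32 and without Flt1 it was 1.57. As a share of all counts, the 10 genes took 0.0365% to 0.0405% in the controls and 0.0497% to 0.0625% in the L-DL KD libraries.

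L-DL KD 3 had the highest level of all 6 libraries for 7 of the 10 genes, and L-DL KD 1 for the other 3, Cldn5, Kdr and Tek. L-DL KD 2 was the lowest of its group for 7 genes. Relative to Flt1 in the same library, a ratio that does not depend on library scaling, Vwf had 0.574, 0.540 and 0.467 counts per Flt1 count in the controls and 1.27, 0.797 and 0.960 in the L-DL KD libraries. The groups were apart in this ratio. Cldn5 stood at 0.225, 0.253 and 0.197 per Flt1 count in the controls and at 0.658, 0.324 and 0.397 in the L-DL KD libraries. The ratios of Cdh5, Pecam1 and Abcb1a to Flt1 were also apart, and those of Kdr, Tek, Esam and Slco1a4 overlapped. Flt1 had the smallest log2 fold change of the 10 genes, so these ratios follow the fold changes above, and a difference in change between members was not tested.

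Levels between genes were compared as CPM per kilobase of the principal GENCODE transcript. In the controls Cldn5 was highest with a mean of 17.6 CPM per kilobase, before Flt1 with 16.1 and Slco1a4 with 15.3. The ranges of these 3 overlapped. Esam (9.43), Pecam1 (8.56), Abcb1a (7.74) and Vwf (6.64) followed, each overlapping its neighbour. Cdh5 (4.68), Tek (3.63) and Kdr (2.58) were lowest and were apart from each other. These places depend on the length used. By the union of all annotated exons, control means were 17.6 CPM per kilobase for Cldn5, 9.15 for Slco1a4, 8.24 for Flt1, 7.06 for Abcb1a, 6.13 for Esam, 4.51 for Pecam1 and 3.65 for Vwf, so that Cldn5 stood clear of the rest. By the principal transcript, in the L-DL KD libraries Cldn5 was at 37.3 CPM per kilobase, between 27.8 and 45.5, and no longer overlapped Slco1a4 (17.6) or Flt1 (17.2). Vwf was at 13.3 CPM per kilobase, next to Pecam1 (13.1) and above Abcb1a (10.1), but by the exon union it was at 7.33 and below Abcb1a at 9.23. Tek (5.16) and Kdr (4.01) stayed at the bottom, and there their ranges overlapped.

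Further lists around the 10 genes covered the barrier, its signals and the cells next to it. Of 17 junction and matrix genes of brain endothelium, 7 were called higher and none lower, with a median log2 fold change of 0.44. Among them Itga6, the laminin receptor integrin alpha 6, was at 44.0, 46.5 and 43.8 CPM in the controls and 110, 127 and 134 CPM in the L-DL KD libraries (log2 fold change 1.47). F11r, which encodes the junctional adhesion molecule JAM-A, was at 23.9, 19.4 and 23.0 CPM against 47.4, 47.9 and 49.0 CPM (1.12). Nid1, a basement membrane protein, rose by 1.01 on the log2 scale. All 3 genes had groups that were apart, and all are expressed by other cells as well.

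Of 18 transport genes of brain endothelium, 8 were called higher and none lower, with a median of 0.33. Slc16a1, the lactate carrier MCT1, was at 58.4, 57.4 and 55.4 CPM in the controls and 134, 124 and 136 CPM in the L-DL KD libraries (log2 fold change 1.2). Slco2b1, an organic anion carrier that microglia also express, rose by 1.21 and Apcdd1, an inhibitor of Wnt signalling that marks barrier endothelium, by 0.85. Slc16a1, Slco2b1 and Apcdd1 thus had larger log2 fold changes than Slco1a4 and Abcb1a, which were not called. Whether their changes differed from those of the 2 members was not tested.

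Of 31 endothelial transcription factors and surface genes, 11 were called higher and 1 lower, with a median of 0.37. The largest rises were those of Ecscr, an endothelial surface regulator of migration, with a log2 fold change of 1.44, Tal1, a blood and endothelial transcription factor, with 1.28, and Fli1, an ETS factor also expressed by microglia, with 1.16. Rgcc, a regulator of the cell cycle, was the gene that fell, by 0.51 on the log2 scale, and its call held in 1 of the 6 fits that left out 1 library (edgeR adjusted p up to 0.124). The call of Tal1 held in 3 of those 6 (up to 0.0665).

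The list around the receptors held calls in both directions. Of 15 VEGF and angiopoietin ligands and co-receptors, 4 were called higher and 2 lower, with a median of 0.10. Over all genes tested, 15.6% were called higher and 15% lower. The co-receptor gene Nrp2 was at 93.1, 85.9 and 94.1 CPM in the controls and 195, 196 and 208 CPM in the L-DL KD libraries. Its log2 fold change was 1.13 ± 0.07 (SE, edgeR, Benjamini-Hochberg adjusted p = 8.37e-05). Vegfa, the main ligand of Flt1 and Kdr, was at 94.3, 108 and 87.4 CPM in the controls and 54.3, 43.2 and 47.9 CPM in the L-DL KD libraries. All L-DL KD libraries were below all controls, and the log2 fold change was -0.99 ± 0.11 (SE, edgeR, Benjamini-Hochberg adjusted p = 0.000621). Vegfb, a ligand of Flt1, fell by 0.33, a call that held in 3 of the 6 fits without 1 library. Angpt2, the angiopoietin that endothelial cells themselves release and that modulates Tek, was low but rose, with 28, 19 and 32 counts in the controls and 58, 56 and 88 in the L-DL KD libraries (log2 fold change 1.25). That call held in 3 of the 6 fits without 1 library (edgeR adjusted p up to 0.0759). Vegfd, a further ligand of the VEGF family, rose by 1.15 on the log2 scale, but its call held in 1 of those 6 fits (up to 0.104). Aplnr, the apelin receptor of growing vessels, had 3, 10 and 2 counts in the controls and 29, 15 and 38 in the L-DL KD libraries, and the ratio of the summed counts per library total was 5.19, with a 95% counting interval of 2.97 to 9.69. Its call held in 3 of those 6 fits. Of the controls only control 2 reached 10 counts, so Aplnr passed the count filter through the L-DL KD libraries.

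Of 12 genes of Wnt and beta-catenin signalling at the barrier, 4 were called higher and 1 lower, with a median of 0.15. Wnt7a and Wnt7b are the neural ligands that induce the barrier in the developing brain. Wnt7a was at 16.2, 18.1 and 16.9 CPM in the controls and 6.89, 5.05 and 5.60 CPM in the L-DL KD libraries. Wnt7b was at 48.8, 46.9 and 43.4 CPM against 70.0, 58.1 and 83.6 CPM. The groups were apart for both genes and in opposite order, with log2 fold changes of -1.54 for Wnt7a and 0.61 for Wnt7b (edgeR, Benjamini-Hochberg adjusted p = 0.00039 and 0.0095). The receptor gene Fzd6 rose by 0.83 and the co-receptor gene Lrp5 by 0.60. The call of Fzd6 held in 3 of the 6 fits without 1 library (edgeR adjusted p up to 0.0714), and its log2 fold change was 0.55 without L-DL KD 1.

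Of 16 genes of activated endothelium, 15 were tested, 8 were called higher and none lower, with a median of 0.74. The leukocyte adhesion molecules P-selectin and E-selectin were near the floor in the controls. Their genes, Selp and Sele, are among the 8 calls but passed the count filter only through the L-DL KD libraries. They were thus tested only because they were high there, and their calls add no support. Selp had 3, 4 and 2 counts in the controls and 43, 14 and 37 in the L-DL KD libraries, a ratio of summed counts per library total of 9.91 with a 95% counting interval of 5.0 to 22.3. Sele had 3, 4 and 1 counts against 25, 11 and 32, a ratio of 8.06 with an interval of 3.87 to 19.4. L-DL KD 2 was the lowest of its group for both selectins, as it was for Vwf, which is stored in the same granules as P-selectin. These intervals cover counting error only. Lcn2, an iron-scavenging protein of inflammation that reactive astrocytes also make, rose by 1.85 on the log2 scale.

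Pericytes and smooth muscle are the mural cells that wrap the vessels. Of 15 genes of these cells, 14 were tested, 8 were called higher, none lower and 6 not called, with a median of 0.54. Pdgfrb, the receptor by which endothelial PDGF-B recruits pericytes, was at 35.4, 34.0 and 30.7 CPM in the controls and 70.2, 55.9 and 75.7 CPM in the L-DL KD libraries (log2 fold change 1.01). Vtn rose by 0.74 and Ndufa4l2 by 0.92. The summed level of this list was between 355 and 418 CPM in the controls and between 518 and 662 CPM in the L-DL KD libraries.

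**Figure D3:**
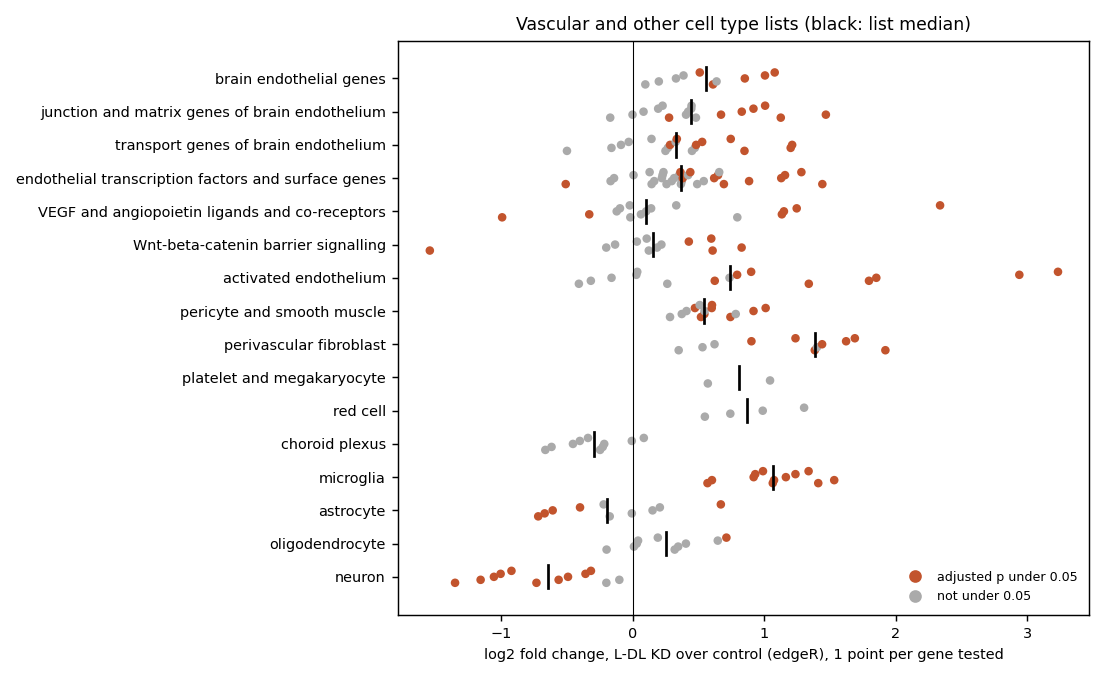
Log2 fold change of every gene tested in the 10 endothelial genes and in lists of vascular and other cell type genes, from edgeR, with 1 point per gene and the median of each list as a black bar. Orange points have an adjusted p under 0.05, and the medians run from -0.65 for the neuron list to 1.38 for the perivascular fibroblast list.

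Genes of some other cell types also differed between the groups. All 12 microglia genes were called higher, with a median log2 fold change of 1.07 and a summed level of 1460 to 1809 CPM in the controls and 3039 to 3940 CPM in the L-DL KD libraries. Of 11 perivascular fibroblast genes, 7 were called higher (median 1.38), and their sums overlapped, with 235 to 503 CPM against 373 to 915 CPM. Of 12 neuron genes, 10 were called lower (median -0.65), with sums of 10840 to 11384 CPM in the controls and 6451 to 7797 CPM in the L-DL KD libraries. Of the 10 astrocyte genes 1 was called higher and 4 lower, and of the 10 oligodendrocyte genes 1 was called higher. The shares over all genes tested were 15.6% higher and 15% lower, so the oligodendrocyte list was not above them. The red cell list had 4 genes tested and none called, at 4.45 to 7.06 CPM in sum in the controls and 7.66 to 12.3 CPM in the L-DL KD libraries. None of the listed markers was at 0 in all 6 libraries. The part of these cell types in the levels of the 10 endothelial genes was not tested.

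Choroid plexus holds its own vessels, and none of its 10 listed genes was called. In L-DL KD 1 to 3 that list summed to 5338, 130 and 41.9 CPM, beside 548, 497 and 615 CPM for the 10 endothelial genes. In controls 1 to 3 it summed to 1765, 458 and 4764 CPM, beside 413, 365 and 389 CPM. Without control 3 and L-DL KD 1, the library of each group with the most choroid plexus RNA, 5 of the 10 genes were again called higher. In that fit, chosen after seeing the data, Abcb1a was called (log2 fold change 0.54, edgeR adjusted p = 0.0326) and Tek was not (0.40, adjusted p = 0.0866). Cldn5 was at 0.83, Vwf at 0.88, Cdh5 at 0.85 and Pecam1 at 0.57.

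Splicing was read from junction counts, as the percent spliced in (PSI, here between 0 and 1), the share of transcripts that include a segment. The 6 columns of an event name 2 groups of 3 without saying which libraries they are. The group listed first was read as L-DL KD, because the deposited difference is first minus second and the methods of the study define it as KD minus control, and the values within a group are not tied to library numbers. Among 40961 events, 17 were in 6 of the 10 genes, with 10 in Pecam1, 2 each in Slco1a4 and Vwf, and 1 each in Flt1, Tek and Abcb1a. Cldn5, Cdh5, Kdr and Esam had no listed event. The test took 10 of the 17, 8 in Pecam1 and 2 in Slco1a4, and called none of them, with edgeR adjusted p between 0.463 and 0.982. None of the 10 was under an unadjusted p of 0.05, limma on the ratio of the forms called none either, and the groups overlapped in every event. Over all 18829 events tested, 0.255% were called.

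Of the 8 tested Pecam1 events, 6 concerned exons 12, 14 and 15, which lie in the cytoplasmic tail, where exons 13 and 14 are known to carry the tyrosine motifs that recruit phosphatases. Their sequences are shown because the reading frame depends on them. Exons are numbered by the GENCODE transcript Pecam1-204, read 5′ to 3′ from GRCm38 on the minus strand, with the exon in capitals and 10 bases of the neighbouring exons in lower case.
Exon 12 (chr11:106681032-106681085): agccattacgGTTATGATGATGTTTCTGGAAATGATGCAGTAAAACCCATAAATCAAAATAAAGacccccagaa
Exon 14 (chr11:106671742-106671798): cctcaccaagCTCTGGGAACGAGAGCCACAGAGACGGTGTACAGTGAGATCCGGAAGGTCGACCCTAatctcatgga
Exon 15 (chr11:106662002-106662024): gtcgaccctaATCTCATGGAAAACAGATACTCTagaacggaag

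Exons 12 and 14 have 54 and 57 bases, both multiples of 3, so leaving out either keeps the frame. Exon 15 has 23 bases, which leaves a remainder of 2, so that transcripts with and without it are read in different frames in the last exon. Exon 12 was included at a PSI of 0.766, 0.633 and 0.695 in the controls and 0.766, 0.540 and 0.695 in the L-DL KD group. Exon 14, between exons 13 and 16, was at 0.691, 0.502 and 0.729 against 0.567, 0.608 and 0.596. Exon 15 after exon 14 was at 0.288, 0.466 and 0.266 against 0.606, 0.346 and 0.367, and where exon 14 was skipped it was at 0.303, 0.127 and 0.466 against 0.386, 0.322 and 0.371. In all 4 readings the values of the groups were interleaved, and both groups used both forms of each exon.

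When exons 14 and 15 were set against each other as alternatives, the share with exon 14 was 0.837, 0.874 and 0.755 in the controls and 0.676, 0.766 and 0.714 in the L-DL KD group. The highest L-DL KD value was just above the lowest control. The log2 change of the odds was -0.80 ± 0.62 (SE), with a 95% interval of -2.16 to 0.55 (edgeR, Benjamini-Hochberg adjusted p = 0.642). This event takes its counts from the inclusion counts of exon 14 and of exon 15 where exon 14 was skipped. Those events also share their skipping counts, so they and this event are not independent of each other. The counts behind these 5 events were between 18 and 94 per library, and changes of the size seen could not be told from the spread at this depth.

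**Figure D4:**
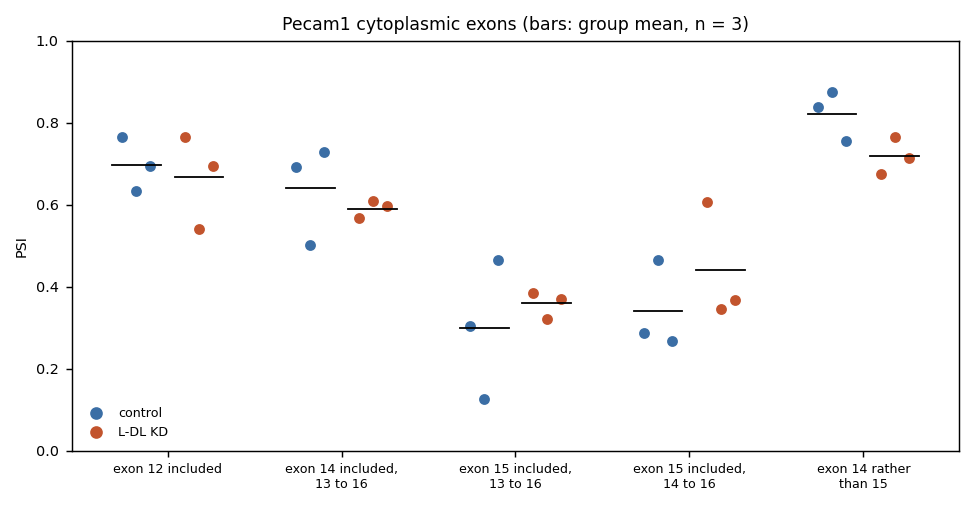
PSI of the alternative exons in the cytoplasmic tail of Pecam1 in every library, on an axis from 0 to 1, with controls in blue, L-DL KD in orange and the group mean (n = 3) as a black bar. The groups overlap in all 5 events, also for exon 14 rather than exon 15, where the means are 0.822 and 0.719.

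The other tested events of Pecam1 concerned exon 14 with a longer form of exon 15 (adjusted p = 0.980), exons 6 and 7 listed as alternatives (0.982) and exon 4 of 303 bases. Exons 6 and 7 were each almost always included, in events that were not tested. The mean PSI of exon 6 was 1.0 in the controls and 0.995 in the L-DL KD group, and that of exon 7 was 0.984 and 0.992. The event on both exons thus does not show a choice between them. Exon 4 had a PSI of 1, 0.967 and 0.853 in the controls and 0.970, 1 and 1 in the L-DL KD group (edgeR, unadjusted p = 0.0921, Benjamini-Hochberg adjusted p = 0.463). In Slco1a4, exon 5 of Slco1a4-203, with 142 bases, was almost always included, at a mean PSI of 0.967 in the controls and 0.985 in the L-DL KD group. Exon 3 of 114 bases was almost always left out, at 0.0485 and 0.0276. The 5 events of Vwf, Flt1, Tek and Abcb1a, and 2 of Pecam1, had too few counts or too few of 1 form to be tested.

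The start regions of the genes were searched for 3 short motifs, from 250 bases before to 50 after the RefSeq start (GRCm38.p6). Windows were given for 6 of the 10 genes, Cldn5, Flt1, Kdr, Tek, Slco1a4 and Abcb1a. The window of Abcb1a, chr5:8566841-8567140, belongs to a RefSeq start far upstream of the GENCODE start given above. The letters AGGAAG, the core of many ETS factor sites, stood on either strand in 3 of the 6 (Abcb1a, Flt1 and Slco1a4) and in 35.4% of all 32851 windows. CATTGT, of the SOX type, stood in 1 of 6 and in 12.6% of all windows, and TATAAA in 1 of 6, Flt1, and in 13.6% of all.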

How the data were processed

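Poly(A) RNA of hippocampus was sequenced by the authors as read pairs in 3 control and 3 L-DL KD libraries. The authors deposited raw gene counts per Ensembl gene, not normalized, and the rMATS junction counts of inclusion and skipping forms with their effective lengths, both on GRCm38. The submitters' processing notes name Bowtie (version 1.1.2), HISAT2 (version 2.1.0) and HTSeq (version 0.6.1). The deposited rMATS columns with the authors' own p-values, FDR, inclusion levels and level differences were not used, except to check which group is subtracted.

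After TMM scaling, the 17621 genes that reached 10 counts in 3 or more libraries entered edgeR's quasi-likelihood test (version 4.0.16, R version 4.3.3), and a gene was called where its Benjamini-Hochberg adjusted p was under 0.05. CPM used the same scaling. Junction counts were tested with edgeR on 12 columns with an effect of each library, an inclusion effect and its change between groups, for events that averaged 20 or more counts per library and 1 or more of each form. PSI was the inclusion count per effective length over the sum of both forms. Library totals were 16052529 to 17913064, so genes near 10 counts are measured with little precision. On simulated data the expression test recovered 62% of genes with a log2 change of 1 and 91% with 2, and the splicing test 25% of changed events.

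The 10 genes and the lists around them were chosen with earlier results of these data known. All 10 were named, with the 3 largest rises and falls among called genes of each vascular list, and Nrp2 was added. Alternatives were library size scaling, DESeq2 (version 1.42.0), limma (version 3.58.1), stricter and looser count filters, leaving out libraries, and a replicate block.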

Additional observations from a re-analysis of the deposited data

How the results depend on the processing

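Over all genes, 5379 were called, and 3498 to 6477 when 1 library was left out, with the lowest values without control 1 (3524), control 2 (3541) and control 3 (3498). Of the 10 endothelial genes 4 to 6 were called higher in those fits. Cldn5, Pecam1, Cdh5 and Vwf were called in all of them and under DESeq2, limma-voom, library size scaling, other filters and the replicate block. Kdr was called with DESeq2 and without a filter (adjusted p = 0.0275 and 0.0342), and without L-DL KD 2 (0.0489). Without 1 library Flt1 ranged from -0.017 (without L-DL KD 3) to 0.22. Hnrnpdl ranged from -0.13 to 0.15 and turned to -0.0008 without control 3, -0.13 without L-DL KD 1 and -0.16 without both. Deviations from the group mean of same-numbered libraries had correlations of 0.0666, 0.179 and -0.163. Those of other library pairs ran from -0.258 to 0.189. So few values cannot show whether the numbers stand for a pairing. With the replicate block 4635 genes were called, all 5 rises held (Cldn5 1.06) and Aplnr and Vegfd lost their calls (adjusted p = 0.062 and 0.0646). Without 1 L-DL KD library, Sele and Selp were below the count filter and not tested. Aplnr, Rgcc, Tal1 and Vegfb lost their calls without control 3 and L-DL KD 1 together. Of all events 48 were called, 0 with limma and 0 to 52 without 1 library, so the splicing calls depend on single libraries. Log2 changes of the odds of Pecam1 events that were not called turned for exon 14 with the long exon 15 (0.18 with limma, -1.22 to 0.72 without 1 library) and, without 1 library, ranged from -0.49 to 0.24 for exon 12, -0.24 to 0.40 for exons 6 and 7 and -0.15 to 1.08 for exon 15 where exon 14 was skipped. The causes were not tested.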
